A study of Rattus norvegicus with 65 samples.

Results

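Prostaglandins are lipid signals made on demand from arachidonic acid, and the enzymes that make and clear them include the targets of acetaminophen. The genes described here were 9 rat genes of that route, taken by symbol: Ptgs1, Ptgs2, Ptges, Ptges2, Ptges3, Ptgis, Ptgds, Pla2g4a and Hpgd. Of these 9 genes, 8 were analysed among the 14554 genes of the count table, 14009 of which carried a symbol. The prostacyclin synthase gene Ptgis was not analysed here.

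The pathway begins when cytosolic phospholipase A2, the product of Pla2g4a, frees arachidonic acid from membranes. The cyclooxygenases Ptgs1 and Ptgs2 turn it into prostaglandin H2, and terminal synthases make prostaglandin E2 (Ptges, Ptges2, Ptges3) or prostaglandin D2 (Ptgds) from that intermediate, while Hpgd starts the breakdown of prostaglandins. Ptgs1 is known as the constitutive enzyme and Ptgs2 as the inducible one, and in the heart both cardiomyocytes and the cells around them can make prostaglandins that act on nearby receptors.

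The study exposed primary neonatal rat cardiomyocytes to 5-fluorouracil, acetaminophen or doxorubicin and sequenced their polyA RNA. Each treated group was compared with a control of the same DMSO content and time, which Ace and Dox shared. 5-fluorouracil (5FU, an antimetabolite) was given at 10 mM and compared with DMSO1, which is 1% DMSO. Acetaminophen (Ace, an analgesic) at 2.5 mM and doxorubicin (Dox, an anthracycline) at 1.25 uM were compared with DMSO2, which is 0.25% DMSO. Exposure lasted 6 or 24 h, which gave 10 groups and 65 libraries. There were 6 libraries in each of DMSO1 and 5FU at both times and in Ace at 6 h, and 7 in each of DMSO2 and Dox at both times and in Ace at 24 h. All groups shared the culture steps, with serum withdrawn overnight before exposure, and the cells came from hearts of several litters that were mixed before plating. Each group is therefore a set of samples from 1 mixed preparation, so p-values measure the spread between these samples, which may be technical, and not that between animals.

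The libraries held 14332827 to 25738297 counts each, with group medians from 16492469 to 20909342. Levels are given as CPM, counts scaled to library size, after TMM scaling, which corrects library totals for differences in composition. Differences are log2 fold changes from edgeR's quasi-likelihood test, fitted to all 65 libraries at once. A gene was called where its Benjamini-Hochberg adjusted p over 14554 genes was below 0.01. "Rose" and "fell" are used for called genes alone. Transcript lengths were not used, so levels are compared between samples of 1 gene and not between genes. Where a marker is called the highest in CPM, that order is not corrected for length and ranks no gene by transcript number.

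Some libraries stood apart from the others of their group. By the distance of each library from its group over all genes, library 1 of 5FU at 6 h (distance 0.347) and library 7 of Dox at 24 h (distance 0.348) lay beyond Dixon's 95% limit. The first held 236 CPM of the stress gene Gdf15, where the other libraries of its group held 77.5 to 129. The second held 14.2 CPM of the natriuretic peptide gene Nppb, where the others held 39.9 to 55, and it was also the deepest library. A further 3 libraries were picked out by eye from single genes after their values, Ptgs2 included, had been seen. Nppb was 30.7 CPM in library 3 of DMSO1 at 6 h against 196 to 883 in the others, and 27.4 CPM in library 7 of Dox at 6 h against 196 to 244. Gdf15 was 58.5 CPM in library 1 of DMSO1 at 24 h against 6.14 to 7.54 in the others. That library also had the largest distance from its group of all libraries (0.353), but did not lie beyond Dixon's limit. All 65 libraries were kept in the tests, and calls that changed without these libraries are given. No pair of libraries of 1 group agreed within counting error.

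The cardiomyocyte label was checked against 8 marker genes (Myh6, Myh7, Actn2, Tnnt2, Tnni3, Ryr2, Pln and Myl2), all of which had counts in every group. Their summed level was 39062 ± 2964 CPM in DMSO2 at 24 h (SD, n = 7), with Myh6, an alpha myosin heavy chain gene, the highest in CPM. Markers of fibroblasts, with Col1a1 the highest in CPM, summed to 16834 ± 1383 CPM in the same libraries, so the cultures also held RNA of fibroblast genes. In bulk RNA, fewer cells of a type and less RNA per cell cannot be told apart.

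By point estimate, the largest drug effect among the 8 genes was in Ptgs2. Next came Hpgd with Dox at 6 h (log2 fold change -2.96, 95% interval -3.70 to -2.21), and no test compared these genes. All 7 libraries of Dox at 24 h held more Ptgs2 than any other library, and the gene rose 10.3-fold over DMSO2 (log2 fold change 3.36, 95% interval 2.94 to 3.78). Ptgs1 rose in the same group and fell with 5FU and Ace at 24 h. Pla2g4a fell with 5FU at both times and with Dox at 24 h. Hpgd, present at a few counts per library, fell with all 3 drugs at 6 h, and Ptges rose with Ace at 6 h. From its dose-finding cultures, the paper reports lower viability with each drug after the longer exposure, and significantly more cell death with Dox alone. Whether cell death had a part in the Dox values at 24 h was not tested.

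Many genes passed the test in these comparisons, so each count of prostaglandin genes is read against the share of all genes. With 5FU at 6 h, 4 of 8 genes passed (1 higher, 3 lower), against 47.9% of all genes. Ace at 6 h gave 3 of 8 (1 higher, 2 lower) against 31.7%, and Dox at 6 h gave 3 of 8, all lower, against 64.2%. At 24 h, 5 of 8 passed with 5FU (2 higher, 3 lower) against 55.8%, 3 of 8 with Ace, all lower, against 37.2%, and 5 of 8 with Dox (2 higher, 3 lower) against 81.4%. In most of these comparisons the share of prostaglandin genes was near that of all genes or below it, so the counts are no result about the pathway as a whole. Without library 1 of 5FU at 6 h and library 7 of Dox at 24 h the counts in that order were 5, 4, 4, 5, 3 and 5, against 46, 33.7, 65.4, 57.1, 39.2 and 80.9% of all genes in the same fit. The median log2 fold changes of the 8 genes in that order were -0.33, -0.17, -0.25, -0.32, -0.20 and -0.20, against -0.0016, 0.0023, 0.003, -0.0094, -8.2e-04 and 0.0028 over all genes. TMM scaling itself draws the medians over all genes towards 0. With library size alone those over all genes were -0.074, -0.028, -0.15, -0.015, 0.056 and 0.049. These medians are therefore no result about the pathway.

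The groups did not overlap for 4, 5 and 3 of the 8 genes with 5FU, Ace and Dox at 6 h, where the shares over all genes were 28.2, 24.5 and 42.6%. At 24 h the corresponding counts were 3, 2 and 3, against 42.9, 26.9 and 68.2%. DMSO1 and DMSO2 did not overlap for 1 of 8 genes at 6 h and 0 of 8 at 24 h, against 5.07 and 1.7%. By edgeR's test, DMSO1 against DMSO2 gave 1 of 8 called genes at 6 h (against 16.5% of all genes) and 1 of 8 at 24 h (against 0.433%), each lower in DMSO1. Between 24 and 6 h in the DMSO controls, 4 of 8 passed, all lower at 24 h, against 64.6%; the genes were Ptgs1, Ptgs2, Ptges2 and Ptges3.

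Effects were also compared with each other by testing the difference itself. Between 24 and 6 h the drug effect differed for 3 of 8 genes with 5FU (1 higher, 2 lower at 24 h, against 39.5% of all genes), for 1 of 8 with Ace (lower, against 11.6%) and for 5 of 8 with Dox (3 higher, 2 lower, against 64.8%). The Ace effect differed from the 5FU effect for 5 of 8 genes at 6 h (3 higher, 2 lower, against 30.9%) and for 3 of 8 at 24 h (1 higher, 2 lower, against 37.3%). These 2 drugs had different solvent controls. Ace differed from Dox, which had the same controls, for 6 of 8 genes at 6 h (4 higher, 2 lower with Ace, against 62.1%) and for 4 of 8 at 24 h (2 higher, 2 lower, against 80.6%). The doses of the 3 drugs were not matched.

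Some calls changed when the libraries that stood apart were left out, a choice made after seeing the data. Without library 1 of 5FU at 6 h and library 7 of Dox at 24 h, the log2 fold change of Ptgs2 was -0.96 (adjusted p = 1.08e-04) with 5FU at 6 h and 0.68 (adjusted p = 0.00371) for DMSO1 against DMSO2 at 6 h. Ptgs1 with Ace at 6 h was then -0.35 (adjusted p = 0.00788) and Ptgds with Dox at 6 h 0.23 (adjusted p = 0.00861), although neither library belongs to these groups, which share the fit's estimate of spread. The effect on Ptges2 between times, with all libraries 0.15 (adjusted p = 0.18) for 5FU, 0.28 (adjusted p = 0.0191) for Ace and 0.23 (adjusted p = 0.0146) for Dox, was then 0.24 (adjusted p = 0.00858), 0.27 (adjusted p = 0.00452) and 0.24 (adjusted p = 0.00391). Over the alternative fits its adjusted p ran from 0.0337 to 0.30 for 5FU, 0.00134 to 0.0227 for Ace and 8.66e-06 to 0.0123 for Dox, and the Dox value passed in 6 fits with 1 library left out.

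Without the 3 libraries picked by eye as well, Ptgs2 was -1.15 (adjusted p = 5.23e-08) with 5FU at 6 h, 0.85 (adjusted p = 8.04e-06) for DMSO1 against DMSO2 at 6 h and 0.48 (adjusted p = 0.00567) with Ace at 6 h. The 5FU effect between times was 1.27 (adjusted p = 2.03e-05) for Ptgs2, against 0.53 (adjusted p = 0.187) with all libraries and 0.90 (adjusted p = 0.0132, not passing) without library 1 of 5FU at 6 h alone, and -1.44 (adjusted p = 0.00548) for Ptges, against -1.27 (adjusted p = 0.013). That Ptges difference also passed by DESeq2's Wald test (adjusted p = 0.00903, alternative fits 0.00903 to 0.021) and in 4 fits with 1 library left out. Ptgds for DMSO1 against DMSO2 at 6 h was -0.29 (adjusted p = 0.00697), against -0.24 (adjusted p = 0.0499, alternative fits 0.00614 to 0.0483), and Ptgs1 for Ace minus 5FU at 24 h 0.54 (adjusted p = 0.00521), against 0.45 (adjusted p = 0.0291). In neither setting was a call lost among the 8 genes. Calls gained without libraries picked by eye lend no support.

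**Figure D1:**
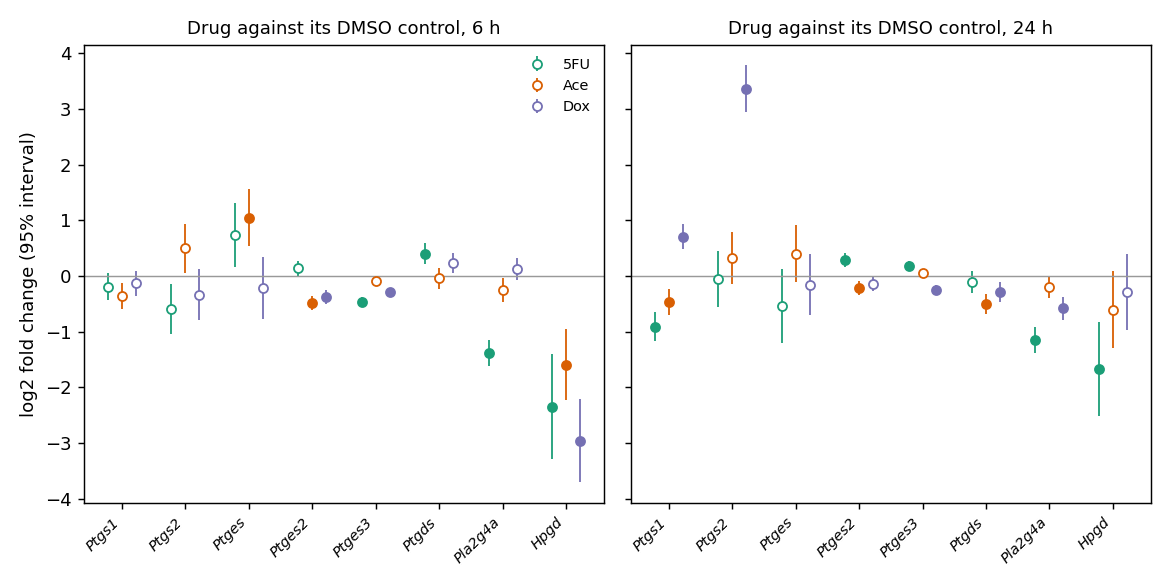
Log2 fold change of each analysed gene against its solvent control at 6 h and at 24 h, with 5FU, Ace and Dox as separate colours. Bars are 95% intervals and filled points mark an adjusted p below 0.01. Ptgs2 with Dox at 24 h lies at 3.36, and the widest intervals belong to Hpgd.

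Ptgs2 encodes the inducible cyclooxygenase and lies on chromosome 13. The lowest, median and highest libraries of DMSO2 at 24 h held 1.37, 1.59 and 2.03 CPM, and those of Dox at 24 h held 12.1, 16.9 and 23.6 CPM. Ace at 24 h gave 1.83, 2.03 and 2.47 CPM. The Dox libraries lay far above every control, while the Ace libraries overlapped them. In DMSO1 at 24 h the values were 1.57, 2.02 and 3.25 CPM and in 5FU at 24 h 1.29, 1.88 and 3.02 CPM, and these groups overlapped. The log2 fold change at 24 h was 3.36 (SE 0.21, adjusted p = 6.24e-23) with Dox, 0.33 (SE 0.23, adjusted p = 0.256) with Ace and -0.053 (SE 0.25, adjusted p = 0.865) with 5FU, so Dox alone passed. Without library 7 of Dox at 24 h the Dox value was 3.46.

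Ptgs2 showed no such difference after 6 h of Dox. Libraries of DMSO2 at 6 h held 1.78, 2.52 and 2.75 CPM of Ptgs2 (lowest, median, highest), those of Dox 1.18, 2.01 and 2.38 and those of Ace 2.91, 3.18 and 5.06. The Dox libraries overlapped the control, and every Ace library was above it, with library 4 of Ace the highest. The log2 fold change was -0.33 (SE 0.23, adjusted p = 0.182) with Dox and 0.50 (SE 0.22, adjusted p = 0.0584) with Ace, and neither passed. The Ace value passed when the fit held the compared groups alone (adjusted p = 0.00718), and over the alternative fits (another scaling, filter, tool or choice of groups) its adjusted p ran from 0.00718 to 0.0714. The Dox effect at 24 h was larger than that at 6 h by 3.70 (SE 0.31, adjusted p = 9.00e-17). Ace minus Dox was 0.83 at 6 h (adjusted p = 9.83e-04) and -3.04 at 24 h (adjusted p = 1.52e-21).

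With 5FU at 6 h, Ptgs2 turned on single libraries. DMSO1 held 1.29, 4.19 and 5.48 CPM and 5FU 1.31, 2.02 and 5.62 CPM (lowest, median, highest), and the groups overlapped. The lowest DMSO1 library was library 3, and the highest 5FU library, at 5.62 CPM, was library 1. The log2 fold change was -0.59 (SE 0.22, adjusted p = 0.0217), which did not pass. Without library 1 of 5FU it was -0.96 (adjusted p = 1.44e-04), and without library 3 of DMSO1 -0.77 (adjusted p = 0.00126). Scaling by library size alone gave -0.66 (adjusted p = 0.00809), where the alternative fits ran from 0.00809 to 0.171. The calls with libraries left out lend no support, since those libraries were noticed after their Ptgs2 values had been seen. DMSO1 was above DMSO2 at 6 h by 0.68 (adjusted p = 0.0137), not passing, and by 0.86 (adjusted p = 5.51e-04) without library 3 of DMSO1. By DESeq2's Wald test this solvent difference passed (adjusted p = 0.00997, alternative fits 0.00997 to 0.047). The Ace effect at 6 h exceeded the 5FU effect by 1.09 (adjusted p = 0.00373). That call was lost without library 5 of 5FU (0.96), library 4 of Ace (0.95) or library 2 of DMSO1 (0.98), and in the fit of the compared groups alone (adjusted p = 0.029, alternative fits 0.00214 to 0.029).

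In the order of group means, Dox at 24 h stood first with 17.3 ± 3.85 CPM (SD, n = 7) and did not overlap the second, DMSO1 at 6 h, with 3.93 ± 1.54 (SD, n = 6). Each later group overlapped the next, from Ace at 6 h (3.46 ± 0.814) down to DMSO2 at 24 h (1.68 ± 0.277). In the DMSO controls Ptgs2 was lower at 24 than at 6 h (log2 fold change -0.72, adjusted p = 8.03e-05).

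Ptgs1, the constitutive cyclooxygenase gene on chromosome 3, moved over a narrower range. After 24 h its lowest, median and highest libraries held 5.58, 6.29 and 6.53 CPM in DMSO2, 3.37, 4.46 and 5.91 in Ace and 6.44, 10.4 and 13.2 in Dox. In DMSO1 they held 4.66, 6.19 and 7.85 CPM and in 5FU 2.94, 3.17 and 3.87. All 6 libraries of 5FU were below those of DMSO1, most Ace libraries were low and most Dox libraries high, but at least 1 Ace and 1 Dox library lay inside the control range. Ptgs1 fell with both 5FU and Ace, with log2 fold changes of -0.91 (SE 0.13, adjusted p = 1.48e-08) and -0.46 (SE 0.12, adjusted p = 7.82e-04). With Dox it rose by 0.70 (SE 0.11, adjusted p = 5.26e-08). Without library 7 of Dox at 24 h that rise was 0.81. Ace and Dox thus moved Ptgs1 in opposite directions at 24 h, and the difference, Ace minus Dox, was -1.16 (SE 0.11, adjusted p = 1.65e-14).

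At 6 h Ptgs1 passed with none of the drugs (edgeR, 0 of 3 comparisons). The values in the lowest, median and highest libraries were 6.95, 8.02 and 8.5 CPM in DMSO2, 5.3, 6.33 and 6.78 in Ace and 6.3, 7.14 and 7.93 in Dox. DMSO1 gave 6.88, 8.86 and 9.24 CPM and 5FU 6.25, 6.95 and 9.3. Every Ace library was below every DMSO2 library, and the other drugs overlapped their controls. For Ace the log2 fold change of Ptgs1 was -0.35 (SE 0.12, adjusted p = 0.0113). It passed under several other settings, with adjusted p = 0.00779 for library size alone, 7.39e-04 for the compared groups alone and 0.00937 by DESeq2's Wald test (alternative fits 7.39e-04 to 0.0139), and without library 2 of DMSO2 (-0.38, adjusted p = 0.00858). The values for 5FU and Dox at 6 h were -0.19 (adjusted p = 0.167) and -0.13 (adjusted p = 0.284), with unadjusted p of 0.115 and 0.24. The effect at 24 h differed from that at 6 h for 5FU (-0.72, adjusted p = 5.25e-04) and for Dox (0.84, adjusted p = 3.70e-06).

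Group means of Ptgs1 ran from 10 ± 2.58 CPM in Dox at 24 h (SD, n = 7), through DMSO1 at 6 h (8.31 ± 1.07) and DMSO2 at 6 h (7.88 ± 0.538), to 3.29 ± 0.387 in 5FU at 24 h (SD, n = 6). Each group overlapped its neighbour in that order. Between 6 and 24 h the DMSO controls themselves changed, with a log2 fold change of -0.39 (adjusted p = 2.70e-05).

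**Figure D2:**
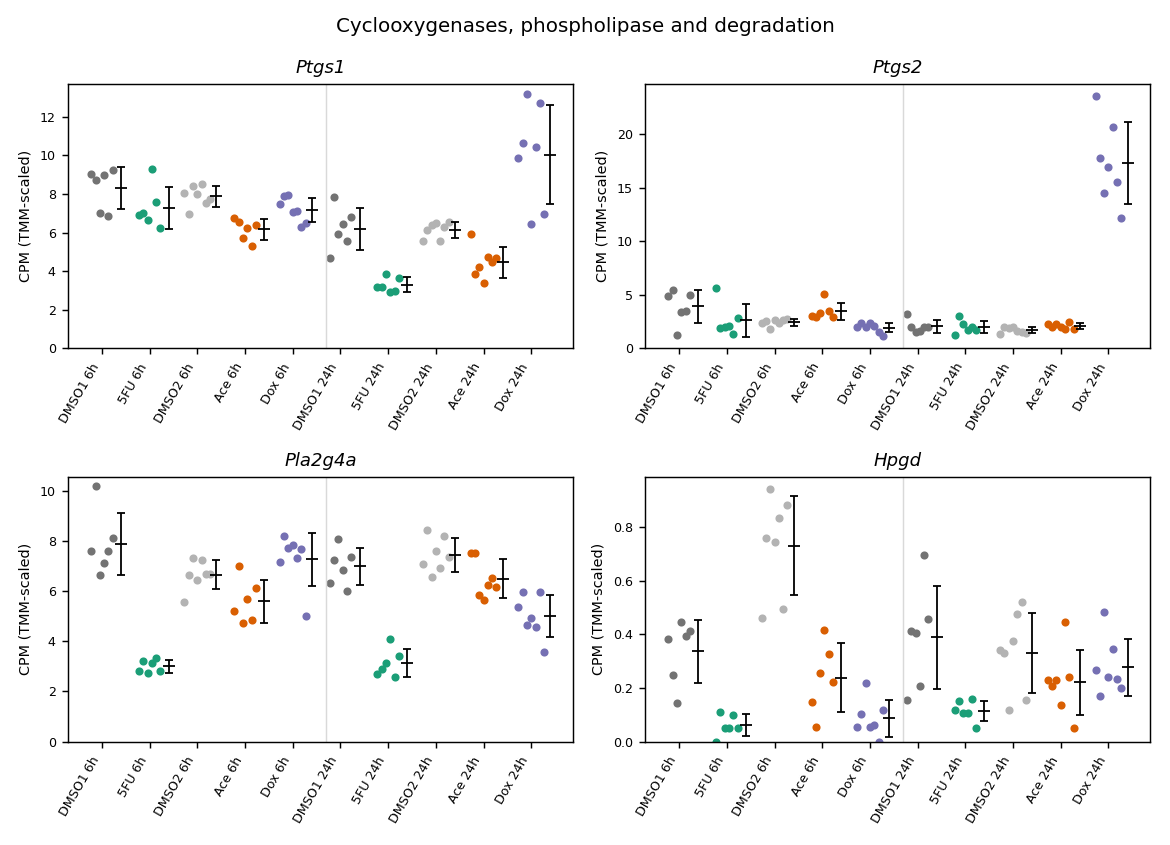
Level of Ptgs1, Ptgs2, Pla2g4a and Hpgd in CPM (TMM-scaled, vertical axis from 0) in each of the 10 groups. Points are libraries and bars give the mean with the SD. Ptgs2 in Dox at 24 h lies between 12.1 and 23.6 CPM, above all other libraries.

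Pla2g4a, the phospholipase gene that supplies arachidonic acid, was lowest with 5FU. Its lowest, median and highest libraries at 6 h held 6.63, 7.61 and 10.2 CPM in DMSO1 and 2.72, 2.98 and 3.32 in 5FU, and at 24 h 6.01, 7.06 and 8.07 and 2.58, 3.02 and 4.1. The 5FU libraries were below every DMSO1 library at both times. Log2 fold changes were -1.39 (SE 0.12, adjusted p = 3.53e-16) at 6 h and -1.15 (SE 0.12, adjusted p = 3.74e-13) at 24 h. Without library 1 of 5FU at 6 h the first value was -1.38.

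Against DMSO2, the libraries of Pla2g4a at 24 h ran 6.58, 7.35 and 8.42 CPM in the control, 5.63, 6.26 and 7.54 in Ace and 3.59, 4.94 and 5.98 in Dox. The Dox libraries were all below the control and Ace overlapped it. The log2 fold change was -0.58 (SE 0.10, adjusted p = 7.79e-07) with Dox, -0.48 without its library 7, and -0.20 (SE 0.10, adjusted p = 0.10) with Ace, which did not pass. At 6 h DMSO2 held 5.58, 6.69 and 7.32 CPM, Ace 4.72, 5.44 and 6.99 and Dox 4.99, 7.68 and 8.19, with overlap in both cases. Neither passed, with -0.25 for Ace (adjusted p = 0.0514) and 0.13 for Dox (adjusted p = 0.246). The Dox effect differed between 24 and 6 h by -0.71 (adjusted p = 1.53e-05), and Ace exceeded 5FU by 1.14 at 6 h and 0.96 at 24 h (adjusted p = 2.01e-08 and 5.27e-07). Mean levels ran from 7.88 ± 1.23 CPM in DMSO1 at 6 h (SD, n = 6) to 3.0 ± 0.248 in 5FU at 6 h (SD, n = 6), and neighbouring groups overlapped throughout.

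Ptges encodes the microsomal prostaglandin E synthase that is often induced together with Ptgs2. It had few counts, 2 to 36 per library. In DMSO2 at 6 h the lowest, median and highest libraries held 0.476, 0.688 and 1.01 CPM and in Ace at 6 h 1.19, 1.4 and 1.85. All 6 Ace libraries were above all 7 of the control. Ptges rose by 1.05 (SE 0.26, adjusted p = 5.94e-04), with 173 counts against 101 in all, a rate 208% of that in the control (95% counting interval 162% to 268%). It was the one drug comparison of 6 in which Ptges was called.

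The other drugs overlapped their controls in Ptges. Ranges at 6 h were 0.357 to 0.763 CPM in DMSO1, 0.628 to 1.29 in 5FU and 0.274 to 0.94 in Dox. Those at 24 h were 0.314 to 0.812 CPM in DMSO1, 0.101 to 0.762 in 5FU, 0.426 to 1.51 in DMSO2, 0.791 to 1.35 in Ace and 0.323 to 1.21 in Dox. With 5FU at 6 h the log2 fold change was 0.74 (adjusted p = 0.0232) and with Ace at 24 h 0.40 (adjusted p = 0.196). The Ace effect at 6 h was above the Dox effect by 1.27 (adjusted p = 2.95e-05), whereas its difference from the Ace effect at 24 h did not pass (-0.65, adjusted p = 0.207). Ace minus 5FU at 6 h was 0.31 (adjusted p = 0.547) and did not pass either, so no difference between these drugs was detected. Mean levels ran from 1.48 ± 0.263 CPM in Ace at 6 h (SD, n = 6) to 0.415 ± 0.234 in 5FU at 24 h (SD, n = 6), with overlap at each step.

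Ptges2, a membrane-associated prostaglandin E synthase, was lower with Ace at both times. The libraries of DMSO2 at 6 h held 46.7, 51.5 and 59.1 CPM (lowest, median, highest), those of Ace 34.4, 36.7 and 39.3 and those of Dox 38.3, 39.7 and 41.6. Both treated groups were wholly below the control. Ptges2 fell with both, by a log2 fold change of -0.49 (SE 0.064, adjusted p = 4.39e-09) for Ace and -0.38 (SE 0.061, adjusted p = 1.48e-07) for Dox. After 24 h the values were 39.9, 40.6 and 44.2 CPM in DMSO2, 32.9, 35.4 and 38.3 in Ace and 33.4, 36.6 and 42.5 in Dox. Ace lay below the control without overlap, and Dox overlapped it. The Ace value was -0.21 (SE 0.062, adjusted p = 0.00343), and it no longer passed without library 2 of Ace (-0.19, adjusted p = 0.0139), without library 7 of DMSO2 (-0.19, adjusted p = 0.0109) or with library size alone (-0.15, adjusted p = 0.0312, alternative fits 1.39e-04 to 0.0312). Dox at 24 h gave -0.15 (adjusted p = 0.0242), which passed with the compared groups alone (adjusted p = 0.00967, alternative fits 0.00967 to 0.125). Without library 7 of Dox it was -0.11 (adjusted p = 0.0937), and over the fits with 1 library left out it ran from -0.16 to -0.095, the value nearest 0 being that without library 2 of Dox.

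With 5FU, Ptges2 was higher at 24 h. Libraries of DMSO1 held 36.9 to 45.5 CPM and those of 5FU 47.6 to 55.5, without overlap, and the gene rose by 0.29 (SE 0.066, adjusted p = 1.31e-04). The 6 h ranges were 41.8 to 54.6 CPM in DMSO1 and 45.6 to 70.7 in 5FU, where library 1 was the highest and the next held 53.3. The log2 fold change at 6 h was 0.14 (adjusted p = 0.0645), and 0.035 without that library. Ace and 5FU differed at both times, by -0.62 at 6 h (adjusted p = 8.12e-08) and -0.50 at 24 h (adjusted p = 5.68e-06). The order of means ran from 53.1 ± 9.03 CPM in 5FU at 6 h (SD, n = 6) to 35.6 ± 1.79 in Ace at 24 h (SD, n = 7), and each group overlapped the next.

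Ptges3 encodes the cytosolic prostaglandin E synthase, which is also the Hsp90 co-chaperone p23. Its libraries ran 159, 175 and 192 CPM in DMSO1 and 119.5, 127 and 138 in 5FU at 6 h (lowest, median, highest), and 165, 166 and 180.2 in DMSO2, 149, 157 and 169 in Ace and 126, 138 and 148 in Dox. 5FU and Dox were below their controls in every library, and Ace overlapped DMSO2. Log2 fold changes of Ptges3 were -0.46 (SE 0.043, adjusted p = 1.93e-14) with 5FU, -0.45 without its library 1, and -0.29 (SE 0.039, adjusted p = 2.34e-09) with Dox. With library size alone the Dox value was -0.44, where the median over all genes was -0.15. With Ace the log2 fold change of -0.093 did not pass (adjusted p = 0.0608). At 24 h the libraries held 126, 130.1 and 145 CPM in DMSO1 and 139, 148 and 162 in 5FU, which overlapped, and 128 to 145 in DMSO2, 136 to 144 in Ace and 109 to 121 in Dox. Dox was again wholly below its control.

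By 24 h Ptges3 rose with 5FU and fell with Dox. The log2 fold changes were 0.18 (SE 0.043, adjusted p = 1.89e-04) and -0.25 (SE 0.04, adjusted p = 6.63e-08), the latter -0.23 without library 7 of Dox. Ace gave 0.055 (adjusted p = 0.255). The 5FU effect thus changed direction between the times, with a tested difference of 0.64 (adjusted p = 1.27e-13). For Ace and Dox the effect on Ptges3 differed between the times by 0.15 (adjusted p = 0.0556) and 0.04 (adjusted p = 0.526), which did not pass. With library size alone both passed, at 0.24 (adjusted p = 0.00281, alternative fits 0.00281 to 0.073) and 0.24 (adjusted p = 2.93e-04, alternative fits 2.93e-04 to 0.59), while the medians over all genes were 0.073 and 0.27. In the DMSO controls both Ptges3 and Ptges2 fell between 6 and 24 h (-0.36, adjusted p = 1.85e-17, and -0.26, adjusted p = 7.77e-07). Means of Ptges3 ran from 175 ± 11.4 CPM in DMSO1 at 6 h (SD, n = 6) to 113 ± 4.63 in Dox at 24 h (SD, n = 7), and neighbours overlapped. Ptges3 is uncertain in part, since Ptges3l1, with 6 to 37 counts per library, and Ptges3l, with 275 to 996, may share sequence with it. Both Ptges3 and Ptges2 also overlap an uncharacterised locus in RefSeq's annotation (GRCr8). The authors ran kallisto on an Ensembl transcriptome, and whether it holds these loci was not checked. They used kallisto's defaults, which do not use strand, so reads shared with such a locus cannot be told apart by strand.

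Ptgds encodes the lipocalin-type prostaglandin D synthase. After 6 h its lowest, median and highest libraries held 9.14, 9.77 and 11.5 CPM in DMSO1, 11.9, 13.4 and 14.8 in 5FU, 10.4, 12 and 13.3 in DMSO2, 9.97, 11.4 and 13.1 in Ace and 12.3, 14.4 and 15.1 in Dox. All 5FU libraries were above DMSO1, whereas Ace and Dox overlapped DMSO2. Ptgds rose with 5FU by 0.40 (SE 0.096, adjusted p = 3.01e-04), and by 0.37 without library 1 of that group. With Dox the value was 0.23 (adjusted p = 0.016), which did not pass. It passed with DESeq2's size factors, with the compared groups alone and by DESeq2's Wald test (adjusted p = 0.00598, 0.00718 and 0.00442, alternative fits 0.00442 to 0.419), and also without library 7 of DMSO2 (0.26, adjusted p = 0.00978) and without library 5 of Dox (0.26, adjusted p = 0.0087). With library size alone the Dox value was 0.079 (adjusted p = 0.419). Ace at 6 h gave -0.044 (adjusted p = 0.742).

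The Ptgds libraries at 24 h ran 12.7, 13.9 and 16 CPM in DMSO2, 8.13, 10.1 and 11 in Ace and 10.4, 10.7 and 15.7 in Dox, where library 7 held 15.7 and the next 11.6. Ace was wholly below the control, and Dox was below it apart from that library. Ptgds fell with Ace, the log2 fold change being -0.50 (SE 0.089, adjusted p = 2.94e-06). With Dox the value was -0.29 (SE 0.089, adjusted p = 0.00248) and -0.36 (adjusted p = 1.77e-04) without library 7. The Dox call was lost without library 2 (-0.24), library 4 (-0.26) or library 6 (-0.23) of Dox, with adjusted p of 0.0166, 0.0105 and 0.0175. DMSO1 held 6.77 to 12.8 CPM and 5FU 8.67 to 10.1, overlapping, with a log2 fold change of -0.10 (adjusted p = 0.383).

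The solvent controls differed in Ptgds at 24 h, DMSO1 being lower than DMSO2 with a log2 fold change of -0.50 (SE 0.094, adjusted p = 0.00225) and overlapping libraries. That call was lost without library 5 (-0.40, adjusted p = 0.0168) or 6 of DMSO1 (-0.45, adjusted p = 0.0114), without library 5 of DMSO2 (-0.46, adjusted p = 0.0108) and with the compared groups alone (-0.48, adjusted p = 0.0389, alternative fits 2.62e-04 to 0.0389). The drug effect on Ptgds was lower at 24 than at 6 h with 5FU (-0.50), Ace (-0.46) and Dox (-0.52), with adjusted p of 0.00191, 0.00654 and 2.00e-04. With library size alone the Ace and Dox differences no longer passed (-0.37 and -0.32, adjusted p = 0.0256 and 0.0154), and with the compared groups alone the 5FU difference did not (adjusted p = 0.011). Ace minus Dox at 24 h was -0.22 (adjusted p = 0.0234), which passed with DESeq2's size factors and Wald test (adjusted p = 0.00633 and 0.00478, alternative fits 0.00478 to 0.0684) and in 3 fits with 1 library left out. Without library 7 of Dox, which stood apart, it was -0.14 (adjusted p = 0.129), and -0.12 (adjusted p = 0.194) without library 1 of 5FU at 6 h as well. Over the alternative fits the adjusted p of the differences between times ran from 9.07e-04 to 0.011 for 5FU, 0.00152 to 0.0256 for Ace and 1.05e-04 to 0.0154 for Dox. Mean levels ran from 14.2 ± 1.27 CPM in DMSO2 at 24 h (SD, n = 7) to 9.36 ± 0.561 in 5FU at 24 h (SD, n = 6), each group overlapping its neighbour.

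**Figure D3:**
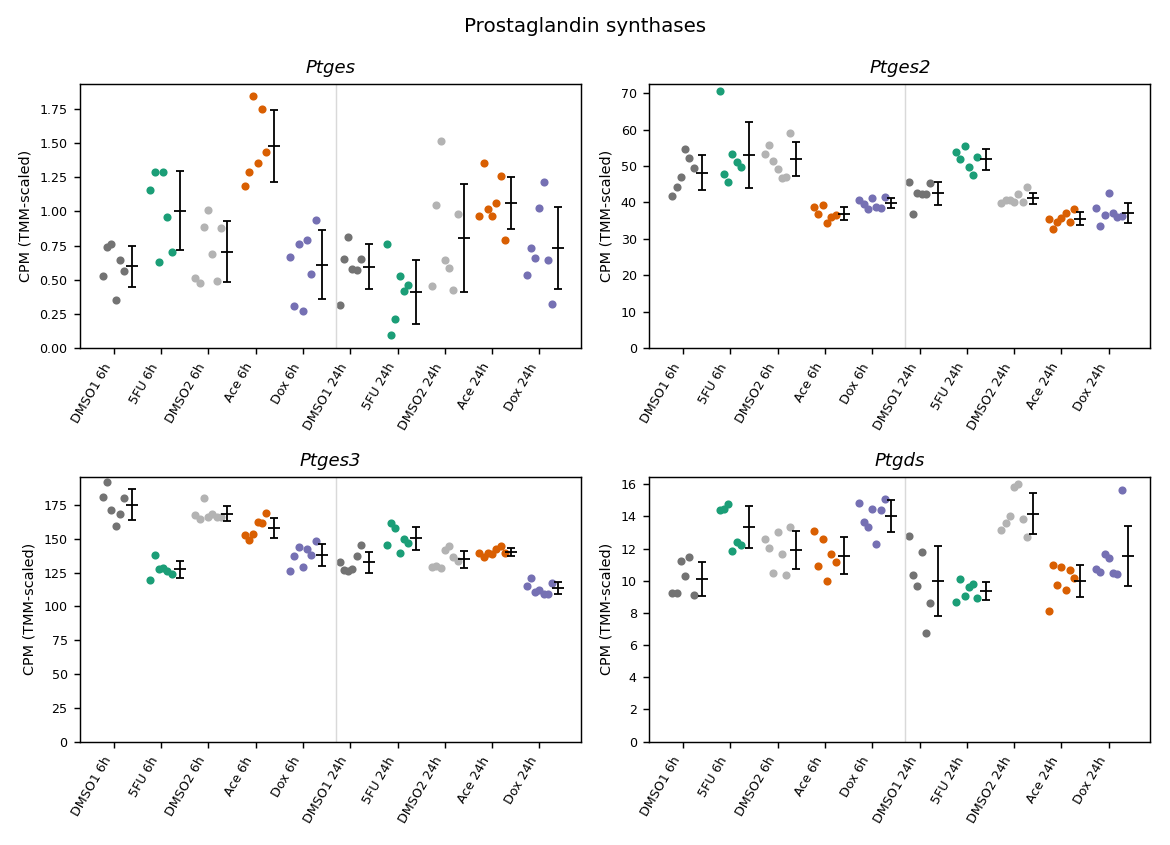
Level of Ptges, Ptges2, Ptges3 and Ptgds in CPM (TMM-scaled, vertical axis from 0) in the 10 groups. Points are libraries and bars give the mean with the SD. Ace at 6 h is the highest group of Ptges (1.19 to 1.85 CPM), and Dox at 24 h the lowest of Ptges3 (109 to 121 CPM).

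Hpgd encodes the dehydrogenase that inactivates prostaglandins, and it was near the limit of what this depth shows, with 0 to 18 counts per library. DMSO2 at 6 h held 9 to 18 counts (0.461, 0.761 and 0.941 CPM for the lowest, median and highest library), Ace 1 to 8 (0.0559, 0.24 and 0.418) and Dox 0 to 4 (0, 0.061 and 0.217). DMSO1 at 6 h held 3 to 10 counts (0.143, 0.389 and 0.446 CPM) and 5FU 0 to 2 (0, 0.0519 and 0.112). In all 3 comparisons every treated library was below every control library. Summed over libraries, 5FU gave 7 counts against 42, 18.1% of the control rate (95% counting interval 6.86% to 40.7%). Ace gave 28 counts against 104, 32.6% of the control rate (95% counting interval 20.7% to 49.9%), and Dox 11 counts against 104, 12.1% of the control rate (95% counting interval 5.88% to 22.6%). The log2 fold changes of Hpgd at 6 h were -2.35 (SE 0.47, adjusted p = 2.42e-05) with 5FU, -1.59 (SE 0.32, adjusted p = 3.35e-05) with Ace and -2.96 (SE 0.37, adjusted p = 2.06e-10) with Dox. Without library 1 of 5FU the first was -2.12. These intervals cover counting error only.

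At 24 h DMSO1 held 3 to 11 counts of Hpgd per library and 5FU 1 to 3, DMSO2 2 to 11, Ace 1 to 8 and Dox 3 to 8, and every treated group overlapped its control. The sums with 5FU were 13 counts against 40, 30.5% of the control rate (95% counting interval 15% to 58.2%), and Hpgd fell with a log2 fold change of -1.67 (SE 0.42, adjusted p = 4.59e-04). With Ace the sums were 31 counts against 44, 64.5% of the control rate (95% counting interval 39.4% to 104%), and with Dox 35 counts against 44, 80.9% of the control rate (95% counting interval 50.4% to 129%). Both intervals take in an unchanged rate, so no difference was detected, and neither passed (adjusted p = 0.146 and 0.429). The Dox effect differed between the times by 2.67 (adjusted p = 8.59e-06). Both sides of that comparison moved. Mean Hpgd at 6 and 24 h was 0.732 and 0.331 CPM in DMSO2, and 0.0871 and 0.278 in Dox. In Ace the means were 0.238 and 0.221 CPM, and in DMSO1 0.338 and 0.39. Over both DMSO controls the log2 fold change between the times was -0.47 (adjusted p = 0.0555), which did not pass.

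The 2 solvents also differed in Hpgd at 6 h. DMSO1 had 42 counts against 104, 46.3% of the control rate (95% counting interval 31.6% to 66.9%) and lay below DMSO2 without overlap, with a log2 fold change of -1.10 (SE 0.29, adjusted p = 0.00349). Hpgd no longer passed there without library 2 (-1.02, adjusted p = 0.013) or library 3 of DMSO1 (-0.94, adjusted p = 0.0127). The 6 h effects of 5FU and of Ace or Dox are thus set against controls of unequal level. Means of Hpgd ran from 0.732 ± 0.186 CPM in DMSO2 at 6 h (SD, n = 7) to 0.0612 ± 0.0405 in 5FU at 6 h (SD, n = 6), and neighbours in the order overlapped.

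By RefSeq's annotation (GRCr8), Ptgs1, Ptges, Ptges2 and Ptgds lie on chromosome 3, Ptges3 on chromosome 7 and Hpgd on chromosome 16. Ptgs2 and Pla2g4a, the cyclooxygenase and the phospholipase that feeds it, are nearest protein-coding neighbours on chromosome 13. With Dox at 24 h these neighbours moved in opposite directions, and Ptgs2 rose together with Ptgs1 on another chromosome. The promoters of these 3 genes are shown for that reason, from 250 bases before to 50 bases after the annotated start, as RefSeq gives them for GRCr8; promoters of 7 of the 8 genes were matched. Capitals mark motif matches. Ptgs1 is at chr3:39981169-39981468, plus strand, Ptgs2 at chr13:64713813-64714112, plus strand and Pla2g4a at chr13:64572303-64572602, minus strand.
Ptgs1: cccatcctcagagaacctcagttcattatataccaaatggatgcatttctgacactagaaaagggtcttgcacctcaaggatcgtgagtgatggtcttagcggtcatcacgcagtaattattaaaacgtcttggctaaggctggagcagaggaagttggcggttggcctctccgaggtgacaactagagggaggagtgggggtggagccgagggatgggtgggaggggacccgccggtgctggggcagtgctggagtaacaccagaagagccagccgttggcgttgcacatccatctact
Ptgs2: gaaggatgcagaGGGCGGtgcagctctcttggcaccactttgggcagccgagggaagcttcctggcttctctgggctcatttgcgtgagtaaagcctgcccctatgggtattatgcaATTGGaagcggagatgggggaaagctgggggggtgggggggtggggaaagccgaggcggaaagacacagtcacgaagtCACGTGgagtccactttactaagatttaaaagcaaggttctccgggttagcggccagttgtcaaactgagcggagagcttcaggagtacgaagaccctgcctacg
Pla2g4a: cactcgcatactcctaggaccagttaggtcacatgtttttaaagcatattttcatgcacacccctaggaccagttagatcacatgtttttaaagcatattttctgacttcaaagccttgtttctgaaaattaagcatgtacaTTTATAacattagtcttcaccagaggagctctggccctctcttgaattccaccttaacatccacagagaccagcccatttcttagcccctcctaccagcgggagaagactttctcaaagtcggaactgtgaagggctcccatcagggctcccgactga

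The motifs were searched on both strands. The share of the 33469 RefSeq promoters of this length with a match was 14.2% for TATAAA, 37.5% for CCAAT, 1.83% for TGACGTCA and 6.42% for CACGTG. It was 7.33% for TGANTCA, 33.1% for GGGCGG and 7.51% for the NF-kB motif. The Ptgs2 window held GGGCGG at bases 13 to 18, CCAAT on the opposite strand at 118 to 122 and CACGTG at 196 to 201, counted from the 5′ end of the window. Pla2g4a held TATAAA on the opposite strand at 143 to 148, and in Ptgs1 none of these letters were found. Among the other matched genes, CACGTG was in Hpgd at 273 to 278, GGGCGG in Ptges, Ptges3, Ptgds and Hpgd, and the NF-kB motif in Ptges3 at 148 to 157, where it overlapped a GGGCGG match. A match is a description of the letters and not evidence of binding.

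For each gene the 3 genes of most similar pattern were found by Pearson's r across the 10 group means of log2 CPM, as a description without a test, taking only named genes whose counts averaged 100 or more. The groups share a time axis, and how common such high values are among other genes was not tested. Nearest to Ptgs2 were Efnb1 (r = 0.976), Smox (r = 0.961) and Ccdc186 (r = 0.959), and to Ptgs1 Cdv3l1 (r = 0.941), Eif1a (r = 0.94) and Ydjc (r = 0.935). Pla2g4a was nearest to Plpp5 (r = 0.942), Tbc1d8b (r = 0.936) and LOC103689966 (r = 0.922). Among the synthases, Ptges was nearest to Farp2 (r = 0.962), Gpd1l1 (r = 0.913) and Rint1 (r = 0.853), and Ptges2 to Tceanc2 (r = 0.91), Pick1 (r = 0.909) and Mrpl47 (r = 0.908). Ptges3 paired with Dok5 (r = 0.916), Flywch1 (r = 0.905) and Zdhhc12 (r = 0.903), and Ptgds less closely with Me3 (r = 0.838), Pola2 (r = 0.829) and Paqr4 (r = 0.824). For Hpgd the genes were Rgs4 (r = 0.909), Cuedc1 (r = 0.904) and Tlr2 (r = 0.882).

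The receptors on which prostaglandins act were taken from a list of 12, of which 11 were analysed and Ptgdr was not analysed here. In the order 5FU, Ace and Dox at 6 h and then the same drugs at 24 h, 0, 0, 2, 1, 0 and 5 of the 11 rose and 4, 3, 4, 3, 4 and 2 fell, with median log2 fold changes of -0.28, -0.26, 0.0029, -0.51, -0.36 and 0.37. The shares of all genes called in these comparisons were 47.9, 31.7, 64.2, 55.8, 37.2 and 81.4%, and the counts of this and the other lists are read against them, so no count is a result about a list as a whole. Ptgfr, the prostaglandin F receptor, fell in all 6 drug comparisons by edgeR. Its median level was 343 CPM in DMSO1 and 67.7 in 5FU at 24 h, and 401 in DMSO2, 297 in Ace and 30.2 in Dox. The log2 fold changes in the same order were -1.60, -0.53, -1.08, -2.37, -0.41 and -3.66, and its level in the DMSO controls was higher at 24 than at 6 h (1.76, adjusted p = 3.09e-33). Tbxa2r, the thromboxane receptor, fell with Ace and Dox, from a median of 6.19 CPM in DMSO2 to 1.86 and 2.28 at 6 h, and from 7.24 to 2.85 and 1.14 at 24 h. Its changes with 5FU did not pass (adjusted p = 0.0155 and 0.641).

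Of the prostaglandin E receptors, Ptger3 rose with Dox, from a median of 0.674 to 1.82 CPM at 6 h (log2 fold change 1.47) and from 0.691 to 5.72 at 24 h (3.10). Ptger1 fell with 5FU at 6 h (-0.28) and with Ace at 6 and 24 h (-0.26 and -0.37), and rose with Dox at 24 h (0.44). Ptger4 fell with 5FU at both times (-0.65 and -0.60) and with Dox at 6 h (-1.09). Ptger2 was called with 5FU at 24 h alone (-1.09, adjusted p = 0.0034). Ptgdr2, a prostaglandin D receptor, had 13 to 18 counts per library in Dox at 24 h against 0 to 1 in DMSO2, 105 against 2 in all, and rose (adjusted p = 7.51e-14).

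Ptgfrn, a regulator of the prostaglandin F receptor, rose with Dox (0.38 at 6 h, 0.81 at 24 h) and with 5FU at 24 h (0.22), and fell with Ace at 24 h (-0.36). Ppard, a nuclear receptor that binds fatty acid derivatives, fell with 5FU and Dox at 6 h (-0.28 and -0.55) and rose with Dox at 24 h (1.19). The prostacyclin receptor Ptgir and the nuclear receptor Pparg did not pass in any of the 6 drug comparisons. The lowest adjusted p was 0.0208 for Ptgir, with Ace at 6 h, and 0.0266 for Pparg, with 5FU at 6 h.

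Other genes of arachidonic acid release were analysed for 16 of 20 listed. In the same order of comparisons, 3, 2, 5, 3, 2 and 4 of the 16 rose and 2, 2, 5, 4, 5 and 9 fell, and the medians were 0.13, 0.018, 0.022, -0.087, -0.11 and -0.30. Pla2g5, a secreted phospholipase A2, fell with Dox at 24 h (log2 fold change -5.17), from a median of 65.3 to 1.76 CPM, and with 5FU at 24 h (-1.03). The lysosomal Pla2g15 fell with Dox at both times (-0.79 and -1.68) and rose with 5FU (0.79 and 0.29). Anxa1, an inhibitor of phospholipase A2, fell with Ace (-0.77 and -0.71), and Plaat3 rose with Dox at 24 h (1.21).

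Of 14 further listed enzymes and partners of prostanoid metabolism, 11 were analysed. In order, 5, 1, 7, 5, 1 and 5 of these rose and 2, 0, 2, 3, 2 and 4 fell, with medians of 0.15, 0.039, 0.26, 0.0075, 0.059 and -0.083. With Dox at 24 h, Akr1b10, an aldo-keto reductase, rose by 2.23 and Hsp90aa1, a chaperone that works with Ptges3, by 1.10, while Prxl2b, a prostaglandin F synthase, fell (-2.97). Ptgr2, a prostaglandin reductase, fell with 5FU at 24 h (-1.06). All 6 listed transporters were analysed; 0, 0, 1, 1, 1 and 1 rose and 3, 2, 3, 2, 3 and 2 fell, with medians of -0.46, -0.041, -0.44, -0.13, -0.22 and -0.24. Slco2a1, the prostaglandin transporter, fell with Ace (-0.73 at 6 h, -0.60 at 24 h), with Dox at 6 h (-0.86) and with 5FU at 24 h (-1.86), and rose with Dox at 24 h (0.42).

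The lipoxygenase and epoxygenase branches use the same arachidonic acid, and 10 of 16 listed genes were analysed. In that order 2, 1, 5, 1, 3 and 4 rose and 2, 1, 2, 3, 1 and 6 fell, with medians of 0.22, 0.091, 0.27, -0.57, -0.22 and -0.79. Ephx1, an epoxide hydrolase, rose with Dox (1.25 at 6 h, 3.02 at 24 h), 5FU (0.81 and 1.60) and Ace at 24 h (1.09). Dpep1, a dipeptidase that acts on leukotrienes, fell in every drug comparison, from -0.40 with 5FU at 6 h to -2.36 with Dox at 24 h.

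All 20 listed regulators of Ptgs2 transcription and mRNA were analysed, and 8, 3, 3, 7, 2 and 12 rose and 7, 4, 9, 4, 5 and 4 fell in the same order, with medians of 0.31, 0.0011, -0.31, 0.0098, -0.026 and 0.54. Fos, a transcription factor of the early response, rose in all 6 drug comparisons, by 3.29 and 4.47 with Dox at 6 and 24 h and by 1.08 and 0.99 with Ace. Egr1 rose with Dox at 24 h (1.99), as did Cebpd (1.75). Tia1 and Celf2, which bind mRNA, and Nfkb1 fell there (-1.39, -0.76 and -1.14). Fos had risen with Dox at 6 h, when Ptgs2 had not, and whether any of these genes acts on Ptgs2 here was not tested.

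Acetaminophen is cleared by conjugation and, after oxidation, by glutathione, and 13 of 24 listed genes of these steps were analysed. Listed genes were matched by their current RefSeq symbol, and Zadh2 through its present symbol, Ptgr3. Of 187 genes on all lists 34 were not matched, and 2 of these are also older names of analysed genes, Cyp4f2 of Cyp4f1 among the prostanoid enzymes and Ugt1a6 of Ugt1a5 here. Neither was counted, so these list counts may miss them. In order, 2, 4, 2, 2, 6 and 7 rose and 2, 2, 4, 3, 1 and 4 fell, with medians of -0.076, -0.053, -0.15, 0.14, 0.16 and 0.56. With Ace at 6 h, Gclc and Gclm, the subunits of the enzyme that begins glutathione synthesis, rose by 1.06 and 0.42, as did the quinone reductase gene Nqo1 (0.55), and Ugdh fell (-0.36). With Ace at 24 h, Nqo1 rose by 1.26, Gclc by 1.25 and Gstp1 by 0.81, while Papss2, which makes the sulfate donor, fell (-0.76). These changes were not confined to Ace, since with Dox at 24 h Gclc and Nqo1 rose by 2.92 and 2.66, and Nqo1 rose with 5FU at 24 h by 1.20.

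AM404 is a brain metabolite of acetaminophen made by Faah, and 5 of 6 genes listed for its formation and targets were analysed. From Ace at 6 h to Dox at 24 h, in the same order, 1, 2, 1, 2 and 2 rose and 1, 2, 1, 1 and 2 fell. With 5FU at 6 h the lowest adjusted p was 0.0324, for Cnr1, also named after its values were seen. The 6 medians were -0.13, 0.25, 0.14, 0.27, 0.25 and -0.022. Faah rose with Ace at 24 h (0.41) and with Dox (0.43 and 0.74). Napepld, which makes lipid amides of the same family, rose with Ace (0.23 and 0.39) and fell with Dox (-0.75 and -1.61). At low counts, the cannabinoid receptor gene Cnr2 fell with Ace (-0.90 and -1.35), a gene named after its values were seen.

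Markers of the cell types that a heart culture can hold moved in the same comparisons. In the order used above, 47.9, 31.7, 64.2, 55.8, 37.2 and 81.4% of all genes were called. No marker was at 0 in any group. Of 8 cardiomyocyte markers, 1, 0, 4, 1, 1 and 0 rose and 1, 1, 3, 5, 3 and 7 fell in the order used above. Myh6 was the highest in CPM in 9 of 10 groups, and Tnnt2 in Dox at 24 h. Their summed level was 39062 ± 2964 CPM in DMSO2, 40087 ± 4136 in Ace and 14334 ± 1366 in Dox at 24 h (SD, n = 7), and 36242 ± 1791 in DMSO1 and 24874 ± 749 in 5FU (SD, n = 6). Every library of Dox (12346 to 16584) and of 5FU (23778 to 25609) was below its control (33796 to 43367 and 33399 to 38211). At 6 h the sums were 44088 ± 4381 in DMSO1, 46081 ± 5198 in 5FU, 36338 ± 2005 in DMSO2, 39597 ± 2159.6 in Ace and 40244 ± 3231 in Dox.

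Of 8 fibroblast markers, 1, 5, 5, 8, 8 and 8 fell in that order and none of the calls was a rise. Of all 14554 genes, 3563, 2215, 4760, 4047, 2773 and 5964 fell, and the markers were not tested as a set. Their sum at 24 h, with Col1a1 the highest in CPM, was 16834 ± 1383 CPM in DMSO2, 8125 ± 723 in Ace and 3344 ± 692 in Dox (SD, n = 7), and 15888 ± 3390.3 in DMSO1 and 5573 ± 298 in 5FU (SD, n = 6). The treated libraries lay below the controls in all 3 cases. At 6 h the sums were 8788 ± 1762, 8540.2 ± 1448, 12284 ± 1862, 9484 ± 1332 and 8969.6 ± 988 CPM in DMSO1, 5FU, DMSO2, Ace and Dox. Endothelial markers, 7 of 8 analysed, fell for 3, 3, 7, 5, 4 and 7, and summed to 319 ± 37.2 CPM in DMSO2 and 42 ± 9.62 in Dox at 24 h. There Cdh5 was the highest in CPM in DMSO2 and Kdr in Dox. Of 8 macrophage markers 1, 0, 2, 0, 0 and 0 rose and 2, 1, 2, 3, 5 and 8 fell. They summed to 81.5 ± 7.4 CPM in DMSO2 and 30.1 ± 4.18 in Dox at 24 h, with Mrc1 the highest in CPM in DMSO2 and Csf1r in Dox.

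Smooth muscle and pericyte markers rose for 1, 0, 4, 2, 0 and 3 and fell for 2, 1, 3, 5, 5 and 4 of 8, and summed to 939 ± 46.2 CPM in DMSO2 and 1347 ± 443 in Dox at 24 h. The highest in CPM was Acta2 in every group at 6 h and in DMSO2 at 24 h, Tagln in DMSO1, Ace and Dox at 24 h, and Cnn1 in 5FU at 24 h. In DMSO1 at 6 h their sum ranged from 1169.6 to 4465 CPM over libraries. Mesothelial and epicardial markers rose for 0, 0, 1, 0, 1 and 2 and fell for 5, 5, 4, 7, 6 and 6 of 8. Tbx18 was the highest of them in CPM, apart from Tcf21 in DMSO2 and Upk1b in Dox at 24 h. Of the Schwann and neural list, 2 of 4 were analysed, and their sum stayed between 2.4 ± 0.443 CPM in Dox at 24 h and 6.48 ± 1.13 in DMSO2 at 24 h. In the order used above, 1, 0, 0, 1, 0 and 0 of these 2 rose and 1, 0, 1, 1, 1 and 1 fell. The mast cell list had 1 of 4 analysed, Kit, which fell in all 6 drug comparisons. Of 4 erythroid genes 3 were analysed, and all 3 rose with Dox at both times and with 5FU at 24 h. Their sum was 16 ± 2.33 CPM in DMSO2 and 109.6 ± 11.6 in Dox at 24 h, with Hba-a1 the highest in CPM in DMSO2 and Slc4a1 in Dox. These levels moved beside those of the prostaglandin genes, and their part in the results was not tested.

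The values are RNA levels, and prostaglandins, enzyme amounts and enzyme activity were not measured, so the binding of acetaminophen to its targets is outside these data. Ptges and Hpgd rest on few counts. Each drug was given at 1 dose, and 5FU was tested against another solvent level than Ace and Dox.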

How the data were processed

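RNA was sequenced from primary neonatal rat cardiomyocytes in 65 libraries of 10 groups. The authors estimated transcript abundances with kallisto 0.46.0 (per the submitters' processing notes), summed them to genes and removed genes with low counts, and deposited a table of estimated counts per gene. The values were already whole, so rounding changed none. No gene was at 0 in every library. A further table of the authors' comparisons holds fold changes and p-values and was not used.

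Columns were assigned to groups by name, and they carry no replicate number that ties them to a labelled sample, so library numbers are names alone. Counts were tested with edgeR 4.0.16 (limma 3.58.1, R 4.3.3): TMM scaling, glmQLFit and glmQLFTest on 1 model with the 10 groups as terms, and Benjamini-Hochberg adjustment over 14554 genes, called below 0.01. Log2 CPM used a prior count of 2. Intervals are at the 95% level. Alternatives were other thresholds, other scaling (DESeq2 size factors, library size alone), filterByExpr, fits of the compared groups alone, DESeq2 1.42.0 and each library left out in turn, and 2 sets of libraries left out were chosen after seeing the data. The code was tested on simulated counts. Counting error weighs most on genes with few counts, such as Hpgd at 0 to 18 per library. Over all genes, no pair of libraries of 1 group agreed within counting error.

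The members and gene lists were chosen with earlier results of these data known. All prostaglandin genes and receptors were named. From each other list (arachidonic acid release, further prostanoid enzymes, transport, lipoxygenase and epoxygenase branch, acetaminophen conjugation and oxidation, AM404, Ptgs2 regulators) up to 3 called genes with the largest rise and up to 3 with the largest fall per drug comparison, with a mean count of at least 100, could be named, and the text gives some of these. Cnr1 and Cnr2 of the AM404 list fall outside this rule and were named after their values were seen. Cell type markers (cardiomyocyte, fibroblast, endothelial, macrophage, smooth muscle, mesothelial, Schwann, mast cell, erythroid) are given for whole lists. For each prostaglandin gene the 3 genes of highest Pearson r are named.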

Additional observations from a re-analysis of the deposited data

Results flagged for a closer look

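Within the groups, 80 sets of libraries (8 genes in 10 groups) were searched for a highest or lowest library separated from the rest beyond Dixon's 95% limit, which chance passes in about 1 of 20 sets. It was passed in 8. Ptgs2 was high in library 1 of 5FU at 6 h, at 5.62 CPM (next 2.82), in library 4 of Ace at 6 h, at 5.06 CPM (next 3.5), and in library 1 of DMSO1 at 24 h, at 3.25 CPM (next 2.03). It was low in library 3 of DMSO2 at 6 h, at 1.78 CPM (next 2.36). Library 3 of DMSO2 at 6 h was also the highest of its group in Ptges3, at 180.2 CPM (next 168). Ptges2 was high in library 1 of 5FU at 6 h, at 70.7 CPM (next 53.3), and Ptgds in library 7 of Dox at 24 h, at 15.7 CPM (next 11.6). Pla2g4a was low in library 7 of Dox at 6 h, at 4.99 CPM (next 7.18).

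In 27 cases the test of a difference between effects passed (edgeR quasi-likelihood, Benjamini-Hochberg), and the values are log2 differences. Between 24 and 6 h the 5FU effect differed by -0.72 for Ptgs1, 0.64 for Ptges3 and -0.50 for Ptgds. For Ace the difference was -0.46 for Ptgds, a call lost in 8 of 27 fits with a library left out (-0.50 to -0.42). The Dox effect differed by 0.84 for Ptgs1, 3.70 for Ptgs2, -0.52 for Ptgds, -0.71 for Pla2g4a and 2.67 for Hpgd.

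At 6 h the Ace effect minus the 5FU effect was 1.09 for Ptgs2, -0.62 for Ptges2, 0.37 for Ptges3, -0.44 for Ptgds and 1.14 for Pla2g4a. The Ptgds value lost its call in 8 of 25 fits with a library left out (-0.48 to -0.40) and with library size alone (-0.40). At 24 h it was -0.50 for Ptges2, -0.40 for Ptgds and 0.96 for Pla2g4a, and the Ptgds call was lost in 18 of 26 such fits (-0.49 to -0.32), with library size alone (-0.34) and with the compared groups alone (-0.40), and is weak.

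Ace and Dox, which share their controls, differed at 6 h by 0.83 for Ptgs2, 1.27 for Ptges, 0.20 for Ptges3, -0.28 for Ptgds, -0.38 for Pla2g4a and 1.37 for Hpgd. Of these, Ptgds lost its call in 8 of 13 fits with a library left out (-0.32 to -0.24) and Hpgd in 7 of 13 (1.14 to 1.75), and Pla2g4a without library 3 of Ace (-0.32, adjusted p = 0.0102). Library size alone moved Ptges3 to 0.32 and ended the calls of Ptgds (-0.15) and Pla2g4a (-0.26), the compared groups alone those of Pla2g4a (-0.37) and Hpgd (1.37), and DESeq2's Wald test that of Hpgd (1.40). At 24 h the differences were -1.16 for Ptgs1, -3.04 for Ptgs2, 0.30 for Ptges3 and 0.38 for Pla2g4a.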

How the results depend on the processing

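No paired analysis was possible because the columns carry no replicate numbers that tie libraries of different groups together. A level per kilobase, intended with mean or longest transcript lengths, was not run, as no transcript lengths were at hand. Called directions of the 8 genes were kept under every alternative run. The counts of called genes (of 8) that moved most are as follows, each with the share of all genes called at the same setting in brackets, and the cause was not tested. With an adjusted p below 0.1 they were 7 for 5FU at 6 h (63.6%), 7 for Ace at 6 h (48.9%), 4 for DMSO1 against DMSO2 at 6 h (32.6%), 3 for the Ace effect between times (26.6%) and 6 for Ace minus 5FU at 24 h (54.1%). With an adjusted p below 0.01 and an absolute log2 fold change of at least 1, which removes smaller effects by construction, edgeR gave 2 for 5FU at 6 h (6.03%), 5FU at 24 h (10.2%), the Dox effect between times (25.9%), Ace minus 5FU at 6 h (3.83%), Ace minus Dox at 6 h (14.4%) and Ace minus Dox at 24 h (36.2%), 1 for Dox at 6 h (15.4%) and Dox at 24 h (39.1%) and 0 for Ace at 24 h (6.12%), DMSO1 against DMSO2 at 24 h (0.055%), 24 against 6 h in the DMSO controls (8.58%), the 5FU effect between times (7.2%), the Ace effect between times (2.34%) and Ace minus 5FU at 24 h (6.29%). With the compared groups alone they were 5 for Ace at 6 h (35.2%), 0 for DMSO1 against DMSO2 at 24 h (0.117%) and 2 for the Ace effect between times (18.4%). For DMSO1 against DMSO2 at 24 h, DESeq2's Wald test left the count unchanged at 1 (1.27%). By edgeR's test 1 gene, Ptgds, had an unadjusted p below 0.05 there. With library size alone the counts were 2 for DMSO1 against DMSO2 at 6 h (16.8%) and 2 for the Ace effect between times (12.5%), and with DESeq2's Wald test 2 for DMSO1 against DMSO2 at 6 h (17.7%). Without library 1 of 5FU at 6 h and library 7 of Dox at 24 h, chosen after seeing the data, they were 2 for DMSO1 against DMSO2 at 6 h (18.4%) and 2 for the Ace effect between times (13.5%), and without the 3 libraries picked by eye as well 5 for Ace at 6 h (36.3%), 3 for DMSO1 against DMSO2 at 6 h (23.6%), 6 for the 5FU effect between times (42.7%) and 2 for the Ace effect between times (15.9%). Under these settings and with DESeq2 size factors or filterByExpr, the counts not named here moved by 2 at most, among them Ace minus Dox at 6 h, which fell to 4 with library size alone (60.3%) and to 4 with the compared groups alone (60.1%). Leaving out 1 library at a time gave 4 to 5 for 5FU at 6 h, 3 to 4 for Ace at 6 h, 3 to 4 for Dox at 6 h, 5 to 5 for 5FU at 24 h, 2 to 3 for Ace at 24 h, 4 to 5 for Dox at 24 h, 0 to 1 for DMSO1 against DMSO2 at 6 h, 0 to 1 for DMSO1 against DMSO2 at 24 h, 4 to 4 for 24 against 6 h in the DMSO controls, 3 to 4 for the 5FU effect between times, 0 to 1 for the Ace effect between times, 5 to 6 for the Dox effect between times, 3 to 5 for Ace minus 5FU at 6 h, 2 to 3 for Ace minus 5FU at 24 h, 4 to 6 for Ace minus Dox at 6 h and 4 to 5 for Ace minus Dox at 24 h.

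The direction of genes that were not called reversed in some settings. With library size alone Pla2g4a was -0.026 with Dox at 6 h, Ptgs1 -0.0094 and Ptges3 -0.031 for DMSO1 against DMSO2 at 6 h, Ptges3 0.022 for that at 24 h, and Ptges2 0.015 for Ace minus Dox at 6 h. Pla2g4a between times in the controls was 0.0062 with DESeq2 size factors and 0.0073 by DESeq2's Wald test. Without all the libraries named above, Ptgs2 with 5FU at 24 h was 0.12 and Ptges with Dox at 24 h 0.011. With 1 library left out the values crossed 0 for Ptgs2 with 5FU at 24 h (-0.20 to 0.13), Ptges with Dox at 24 h (-0.31 to 0.065), Ptgs1 and Hpgd for DMSO1 against DMSO2 at 24 h (-0.054 to 0.085 and -0.041 to 0.35), Ptges and Pla2g4a between times in the controls (-0.024 to 0.15 and -0.029 to 0.041), Pla2g4a for the Ace effect between times (-0.0021 to 0.12) and Ptges for the Dox effect between times (-0.10 to 0.28). Of 80 group levels, 5 moved by more than their SD with library size alone.

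Over all genes, library size alone moved the share of calls that were higher, to 36.8% against 48.9% for 5FU at 6 h, 33.8% against 49.1% for Dox at 6 h, 61.4% against 48.8% for Ace at 24 h, 29.6% against 59.9% for DMSO1 against DMSO2 at 6 h, 80.7% against 31.8% for DMSO1 against DMSO2 at 24 h, 77.1% against 47.9% for the Ace effect between times, 64.8% against 52.5% for the Dox effect between times and 63.3% against 50.6% for Ace minus Dox at 6 h. It moved the median of all genes to -0.15 with Dox at 6 h, 0.27 for the Dox effect between times and 0.11 for Ace minus Dox at 6 h. Fits of the compared groups alone called 1565 genes in place of 2397 for the solvents at 6 h, 17 in place of 63 at 24 h and 2684 in place of 1694 for the Ace effect between times. For the solvents at 24 h DESeq2 called 181, the fit without the libraries that stood apart 158, and that without the 3 libraries picked by eye as well 56. Depth limits Hpgd and Ptges most.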
